A study of Mus musculus and Acomys cahirinus with 16 samples.

Results

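The Hox genes of skin were measured in laboratory mouse (Mus musculus) and African spiny mouse (Acomys cahirinus), with and without a chemical carcinogenesis treatment. Members were all genes whose symbol is Hoxa, Hoxb, Hoxc or Hoxd followed by digits alone, which leaves out antisense genes. All 39 were found in both count tables, 39 of 56980 genes in mouse and 39 of 19818 in spiny mouse. There were 11 in cluster A, 10 in B, 9 in C and 9 in D.

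RNA came from skin in 16 samples, 4 in each of 4 groups, which were untreated mouse, mouse given DMBA/TPA, untreated spiny mouse and spiny mouse given DMBA/TPA. DMBA is a mutagenic carcinogen and TPA a phorbol ester that promotes the growth of mutated skin cells. The labels name skin as the tissue and give no body site, age, sex, strain, dose or time, and do not say whether replicates are separate animals, so p-values measure only the spread between these samples, which may be technical. Sample labels were followed where the series text, which speaks of irradiated fibroblasts, differs from them. The question put to the data here was whether the same Hox genes were on, and at similar relative levels, in the 4 groups.

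Hox genes encode homeodomain transcription factors that give cells their position along the head-to-tail and limb axes. They lie in 4 clusters, and their numbers (paralog groups) run from the 3′ end of a cluster, whose genes act toward the head, to the 5′ end, whose genes act toward the tail and the limb tips. Adult dermal fibroblasts keep the Hox pattern of the body site they came from. Genes at the far 5′ end of clusters A and D mark distal limb and genital skin, and Hoxc13 has a further role in the hair shaft and nail.

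Total counts ran from 19608787 to 30198281 in mouse samples and from 21143918 to 30561256 in spiny mouse samples. Levels are given as CPM (counts scaled to library size with TMM factors), and 3 counts correspond to between 0.102 and 0.158 CPM, a limit that covers counting error only. A member was taken as detected in a group when each of its 4 samples had at least 0.5 CPM. Genes were compared with each other only as CPM per kilobase of the deposited gene length. Untreated mouse replicate 2 stood apart from the other untreated mouse samples in hair follicle and muscle markers, and the counts of called members are also given without it. The skin markers Krt5, Krt14, Krt15, Col17a1, Itga6 and Trp63 of basal keratinocytes summed to between 6938 and 20884 CPM in all 16 samples.

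RefSeq windows of the 250 bases before a transcription start (GRCm38.p6) were available for 22 of the 39 members, as 24 windows that each matched the GRCm39 genome once. Those of 4 members that illustrate the main behaviours are shown, with 3 homeodomain motifs, searched on both strands, in capitals. Hoxa10 (minus strand) was the most 5′ detected A gene and was lower after treatment in both species, at chr6:52217835-52218084. A second Hoxa10 window, at chr6:52211920-52212169, is not shown and held 20 CpG dinucleotides, against 7 in the one shown. Hoxd8 (plus strand) was the most abundant D gene and was lower in both species, at chr2:74534709-74534958. Hoxb8 (plus strand) was higher in treated mouse and lower in treated spiny mouse, at chr11:96172481-96172730. Hoxa2 (minus strand) was lower in treated mouse and differed between species, at chr6:52141812-52142061.
Hoxa10: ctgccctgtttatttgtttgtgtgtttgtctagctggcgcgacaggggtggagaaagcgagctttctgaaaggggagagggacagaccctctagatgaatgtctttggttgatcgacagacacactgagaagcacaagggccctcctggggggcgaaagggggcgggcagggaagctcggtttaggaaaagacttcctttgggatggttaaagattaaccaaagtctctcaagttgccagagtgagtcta
Hoxd8: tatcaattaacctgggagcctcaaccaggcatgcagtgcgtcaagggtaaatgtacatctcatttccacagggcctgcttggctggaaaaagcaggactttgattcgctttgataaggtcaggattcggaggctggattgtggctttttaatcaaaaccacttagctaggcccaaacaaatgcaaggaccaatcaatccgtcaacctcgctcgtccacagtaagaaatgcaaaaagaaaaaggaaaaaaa
Hoxb8: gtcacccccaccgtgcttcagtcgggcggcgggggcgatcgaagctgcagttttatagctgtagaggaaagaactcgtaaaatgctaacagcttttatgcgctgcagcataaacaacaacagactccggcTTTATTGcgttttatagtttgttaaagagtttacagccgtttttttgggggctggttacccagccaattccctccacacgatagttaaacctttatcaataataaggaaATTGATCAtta
Hoxa2: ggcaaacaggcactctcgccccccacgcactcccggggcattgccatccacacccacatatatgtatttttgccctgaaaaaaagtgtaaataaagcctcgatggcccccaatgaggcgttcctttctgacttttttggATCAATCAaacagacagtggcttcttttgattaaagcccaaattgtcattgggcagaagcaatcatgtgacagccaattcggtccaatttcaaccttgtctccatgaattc
The motifs were TGATNNAT (bound by Hox with Pbx), TAATTA (a homeodomain core) and CAATAAA (preferred by posterior Hox proteins). TGATNNAT was in 4 of the 24 Hox windows (16.7%), among them those of Hoxb8 and Hoxa2, and in 7.7% of the 32851 windows of the same length in the table. TAATTA was in 2 Hox windows (8.3%) against 4.8% of all windows, and CAATAAA was in 1, that of Hoxb8 (4.2%), against 4.2%. The windows of Hoxa10 and Hoxd8 held none of these letters, which says nothing of the factors. Hox windows held a median of 12.5 CpG dinucleotides, from 2 to 35, and all windows a median of 6.

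The same core of Hox genes was detected in all 4 groups. Of the 39 members, 28 were detected in untreated mouse skin, 26 in treated mouse skin and 27 in each spiny mouse group. The 25 detected in all 4 included Hoxa3 to Hoxa7, Hoxa9, Hoxa10, Hoxb2 to Hoxb9, Hoxc4 to Hoxc6, Hoxc8, Hoxc9, Hoxc13 and Hoxd8 to Hoxd10. Only 3 members differed between groups. Hoxa2 and Hoxd4 were detected in every group except treated mouse, and Hoxc10 in both mouse groups and neither spiny mouse group. Hoxa2 fell short in treated mouse only through replicate 4, at 0.371 CPM, and without that sample 27 members were detected there. Hoxd4 fell short through replicates 1 and 4.

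The 5′ limit of detection at 0.5 CPM was the same in each group for 3 of the 4 clusters, at Hoxa10, Hoxb9 and Hoxd10. For cluster D this depended on the limit chosen. Hoxd10 was 0.658 to 1.43 CPM in untreated and 0.703 to 0.893 CPM in treated mouse. In spiny mouse its lowest values were 1.23 CPM untreated and 1.64 CPM treated. At a limit of 1 CPM it was thus detected in both spiny mouse groups and in neither mouse group. In cluster C the last gene detected was Hoxc13 in every group, and before it Hoxc10 in mouse and Hoxc9 in spiny mouse. The 11 members detected in no group were Hoxa11, Hoxa13, Hoxb1, Hoxb13, Hoxc11, Hoxc12, Hoxd1, Hoxd3, Hoxd11, Hoxd12 and Hoxd13. Hoxd12 and Hoxd13, which pattern digits and external genitalia, had 0 counts in all 16 samples. Hoxa13, another distal limb and genital gene, had at most 2 counts in a sample, Hoxb13, a gene of tail-end skin and prostate, at most 1, and Hoxa11 at most 5. The most abundant of the 11 was Hoxd3, with up to 26 counts in a sample and up to 1.19 CPM, in untreated spiny mouse replicate 4. Hoxd3 fell short of the limit in untreated spiny mouse only through replicate 2, at 0.476 CPM, and in treated spiny mouse only through replicate 3, also at 0.476 CPM.

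**Figure D1:**
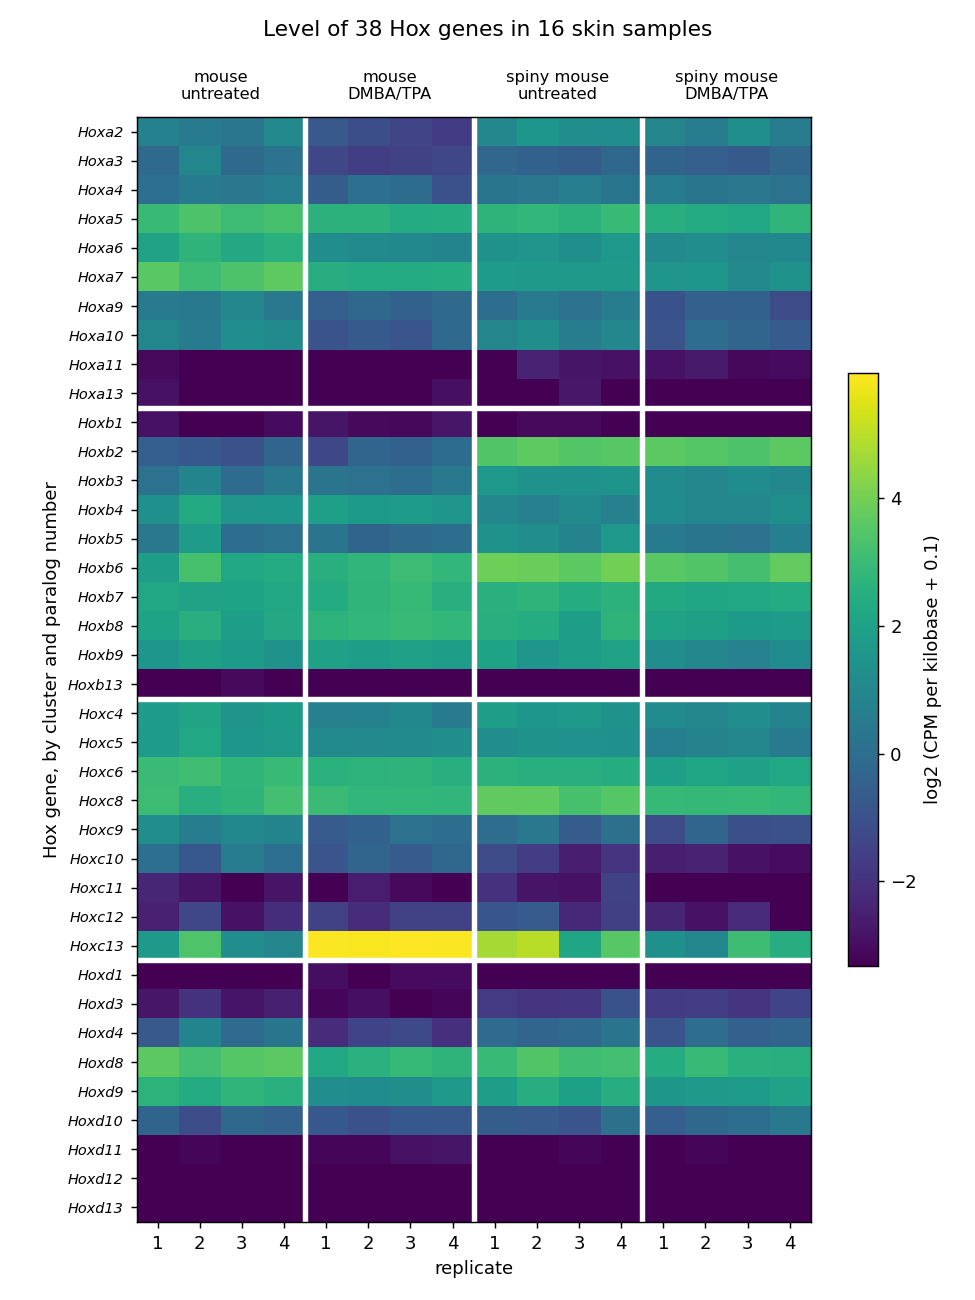
Level of 38 Hox genes (rows, by cluster and paralog number) in each of the 16 samples (columns, 4 replicates per group), as log2 of CPM per kilobase with 0.1 added. Genes 5′ of Hoxa10, Hoxb9 and Hoxd10 are dark in all groups, and Hoxc13 is the brightest gene in the 4 treated mouse samples.

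Middle paralog groups carried most of the Hox level in 3 of the 4 groups. The highest members per length in untreated mouse were Hoxd8 (11.1 ± 1.48 CPM per kilobase, SD, n = 4), Hoxa7 (10.8 ± 1.83) and Hoxa5 (8.84 ± 1.12), whose spreads all overlap. In treated mouse skin Hoxc13 led at 60.0 ± 1.55 CPM per kilobase, 44.96% of the sum over all members, and Hoxc8 followed at 7.16 ± 0.482. In untreated spiny mouse skin the order began with Hoxc13 (18.1 ± 12.3), Hoxb6 (14.3 ± 1.43), Hoxc8 (11.6 ± 1.62) and Hoxb2 (11.4 ± 0.75). Hoxc13 had a spread wide enough to cover the others, while Hoxc8 and Hoxb2 lay within each other's spread. Treated spiny mouse skin had Hoxb2 (11.5 ± 0.891) and Hoxb6 (11.3 ± 1.69) first, within each other's spread, and Hoxc8 next (7.24 ± 0.155).

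Paralog groups 5 to 8 made up 67.4% ± 2.90 of the summed level per length in untreated mouse, 41.3% ± 0.951 in treated mouse, 55.6% ± 4.52 in untreated spiny mouse and 58.4% ± 3.15 in treated spiny mouse (SD, n = 4 each). Groups 1 to 4 made up 13.3% ± 1.56, 6.59% ± 0.432, 20.1% ± 3.13 and 27.1% ± 1.39 in the same order. Over the members with at most 10% exon overlap in mouse these were 8.29%, 4.457%, 5.388% and 8.015%, so that untreated spiny mouse lay below untreated mouse instead of above it. Groups 9 to 13 made up 19.4% ± 2.36, 52.1% ± 1.13, 24.3% ± 7.37 and 14.5% ± 3.72. Most of the 5′ share in treated mouse was Hoxc13. With Hoxc13 left out, a choice made after seeing the data, groups 9 to 13 held 15.96%, 12.94%, 12.36% and 9.815%, groups 5 to 8 held 70.2%, 75.08%, 64.41% and 61.59%, and groups 1 to 4 held 13.9%, 11.98%, 23.2% and 28.6%.

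**Figure D2:**
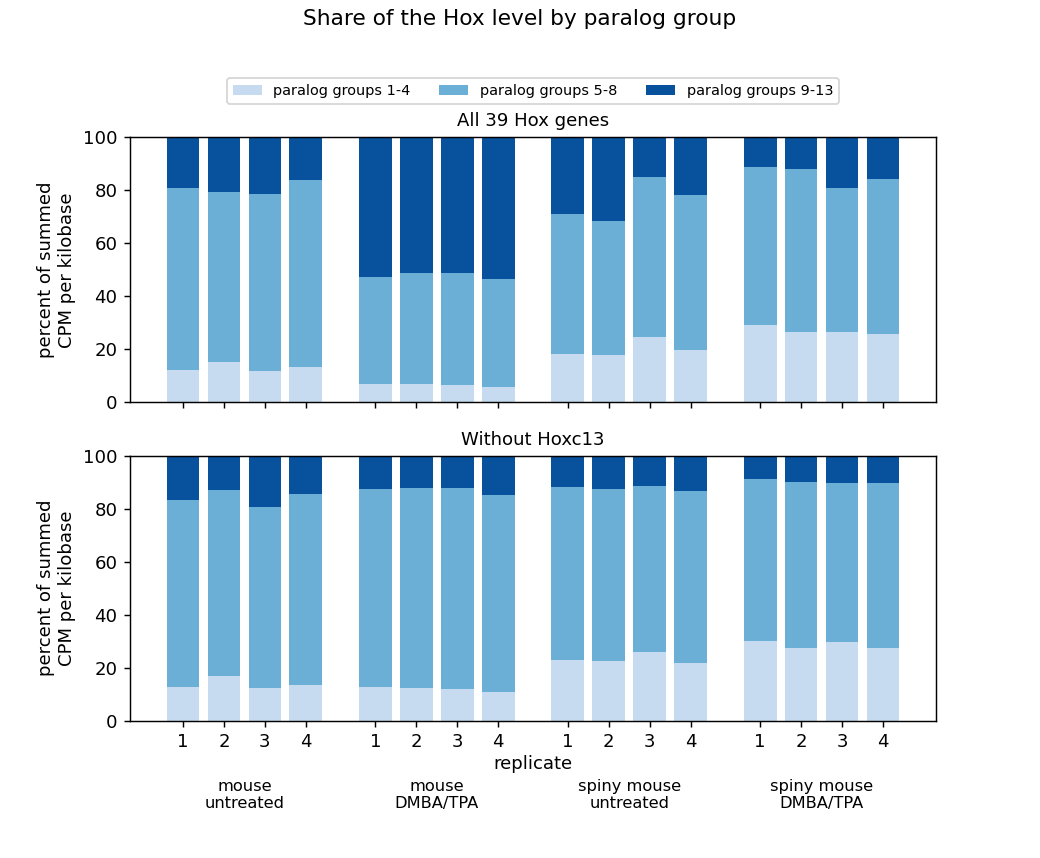
Share of the summed Hox level (percent of CPM per kilobase) held by paralog groups 1 to 4, 5 to 8 and 9 to 13 in each sample, with all 39 genes (top) and without Hoxc13 (bottom). Groups 9 to 13 take over 50% of each treated mouse bar at the top, and between 12.1% and 14.7% of it at the bottom.

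The balance of clusters differed as well. Cluster A held 31.3% ± 2.69 of the summed level in untreated mouse samples and 12.1% ± 0.965 in treated ones. Without Hoxc13 it lay between 30.3% and 34.4% in the 4 untreated and between 19.7% and 24.2% in the 4 treated mouse samples, while cluster B lay between 21.0% and 30.9% in untreated and between 38.6% and 42.1% in treated ones. In spiny mouse, cluster A lay between 18.0% and 20.0% in untreated and between 19.2% and 20.2% in treated samples, without Hoxc13. These shares are descriptions and carry no test.

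Exon overlap sets a limit on the mouse levels. Fragments that overlap more than 1 annotated gene were not counted, and 10 mouse members share over 10% of their exon length with another gene. Among them are Hoxd3 (62.8%), Hoxb3 (53.1%, with Hoxb3os), Hoxd4 (52.3%), Hoxa11 (35.0%), Hoxb2 (27.3%) and Hoxa3 (27.1%). Hoxd3 and Hoxa11 were detected in no group, and the part of exon overlap in their low mouse counts was not tested. No spiny mouse member does, and that table lists none of the 12 noncoding cluster genes looked for. Hoxb2, a hindbrain gene also present in trunk skin, was 2.04, 1.71, 1.36 and 2.51 CPM in untreated mouse replicates 1 to 4 and 1.05, 2.51, 2.22 and 3.04 CPM in treated ones. In spiny mouse it was 18.6, 21.6, 19.2 and 20.3 CPM untreated and 21.2, 19.9, 17.8 and 21 CPM treated. Levels were not tested between species, and the part of exon overlap in this gap was not tested.

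Most tested Hox genes of mouse skin were called lower after treatment. The lowest median log2 fold changes were those of clusters A (-1.04) and D (-1.08), against -0.63 in C and 0.24 in B. Of 28 members tested, 18 were called (edgeR quasi-likelihood test, Benjamini-Hochberg adjusted p under 0.05), 3 higher and 15 lower. Over all 19740 genes tested, 61.2% were called, 25.9% higher and 35.3% lower, so the share called among Hox genes was near the background. Of all called genes, 42.4% were higher with TMM scaling, 30.5% when upper-quartile factors were used and 28.6% when library sizes were left unscaled. Of the called Hox genes, 16.7% were higher with TMM scaling, and 6.25% with either of the others. The median log2 fold change was -0.69 over the tested members and -0.15 over all genes. The ranges of the 2 groups were apart for 18 of the 28 members, and for 58.6% of all genes. Changes of at least 1 on the log2 scale were called for 10 members, and for 34.1% of all genes. In bulk skin, fewer cells of a type and less RNA per cell cannot be told apart.

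In cluster A, 8 of 9 tested genes were lower in treated mouse skin and none was higher. Hoxa3, a gene of neck and pharyngeal arch patterning (GRCm39 chromosome 6, 52146042 to 52190316, minus strand), was 5.01, 11, 4.91 and 6.42 CPM untreated and 1.79, 1.36, 1.49 and 1.78 CPM treated. The groups did not overlap, and the log2 fold change was -2.08 (SE 0.292, adjusted p 0.00034). Hoxa2, which specifies the identity of the second pharyngeal arch, was 2.81, 2.28, 2.01 and 3.51 CPM untreated and 0.893, 0.659, 0.509 and 0.371 CPM treated, again without overlap, a log2 fold change of -2.14 (SE 0.325, adjusted p 0.000531). Hoxa10, a gene of lumbar vertebrae, uterus and limb (chromosome 6, 52208177 to 52217834, minus strand), went from 5.86, 4.34, 7.25 and 6.83 CPM to 1.37, 1.67, 1.45 and 2.6 CPM, with every treated sample below every untreated one (log2 -1.77, SE 0.263, adjusted p 0.000475).

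The abundant middle A genes moved the same way. Hoxa7, a gene of thoracic level, was 34.2, 24.2, 29.7 and 36 CPM untreated and 15.6, 14.7, 14.9 and 15 CPM treated (log2 -1.04, SE 0.131, adjusted p 0.000188). Hoxa6, its neighbour, was 3.5, 5.66, 4.1 and 5.1 CPM untreated and 1.94, 1.8, 1.67 and 1.52 CPM treated (log2 -1.40, adjusted p 0.000523). Hoxa5, which acts in lung and cervical-thoracic patterning, was 14.5, 19, 15.2 and 17.6 CPM untreated and 11.4, 11.4, 9.67 and 9.8 CPM treated (log2 -0.65, adjusted p 0.0023). All 3 genes had lower values in each treated sample than in any untreated one. Hoxa9, of the posterior trunk, changed by -0.98 (adjusted p 0.0021) and Hoxa4 by -0.82 (adjusted p 0.0456). The Hoxa4 call was lost on leaving out any sample but untreated replicate 1, with adjusted p up to 0.119, and with DESeq2 (0.0549).

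Cluster B went the other way or did not pass the test in mouse. Hoxb8, a gene of the thoracic trunk that is also needed in microglia (chromosome 11, 96172731 to 96176141, plus strand), was 10.9, 14.9, 9.3 and 12.5 CPM untreated and 16.5, 18.4, 20.2 and 18.5 CPM treated. All treated samples were above all untreated ones, with a log2 fold change of 0.63 (SE 0.153, adjusted p 0.00616). Hoxb7, its neighbour, was 7.17, 6.1, 6.23 and 7.02 CPM untreated and 7.93, 10.3, 11.2 and 8.76 CPM treated, also without overlap (log2 0.53, SE 0.15, adjusted p 0.013). Both calls depended on the scaling. The log2 fold changes of Hoxb8 and Hoxb7 were 0.42 and 0.33 with upper-quartile factors (adjusted p 0.0613 and 0.0765), and 0.39 and 0.29 on unscaled library sizes (adjusted p 0.0761 and 0.108), settings that lower the median of all genes by 0.20 and 0.24.

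Hoxb6 was 7.08, 18.5, 8.79 and 10.0 CPM in untreated samples and 11, 13.3, 16.1 and 13.8 CPM in treated mouse skin, and untreated replicate 2 was the highest of the 8. Hoxb9, the most 5′ B gene detected, was 7.21, 9.6, 8.24 and 6.74 CPM untreated and 9.98, 8.88, 10.1 and 8.95 CPM treated, with overlap. Neither passed the test, with log2 fold changes of 0.29 and 0.25. Without untreated mouse replicate 2 the called members were 20, 6 of them higher, because Hoxb4 (log2 0.37, adjusted p 0.0300), Hoxb6 (0.74, adjusted p 0.00130) and Hoxb9 (0.44, adjusted p 0.00736) joined Hoxb7, Hoxb8 and Hoxc13. The median log2 fold change of the members was then -0.51, and that of all genes -0.05. Of all 20009 genes tested in that fit, 13944 were called, 48.1% of them higher.

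In cluster C, 4 of 7 tested genes were lower and Hoxc13 was higher in treated mouse skin. Hoxc4 was 8.51, 10.6, 6.89 and 8.38 CPM untreated and 3.99, 4.04, 4.95 and 3.49 CPM treated (log2 -1.06, SE 0.181, adjusted p 0.000996). Hoxc9, of the thoracic-lumbar trunk, was 5.46, 3.33, 4.62 and 4.15 CPM untreated and 1.31, 1.54, 2.44 and 2.26 CPM treated (log2 -1.21, SE 0.259, adjusted p 0.00337). For both genes the groups did not overlap. Hoxc5 changed by -0.73 and Hoxc6 by -0.35, with adjusted p-values of 0.00546 and 0.0214, and the call of Hoxc6 was lost with DESeq2 (0.0863) and without untreated replicate 1 or 2 or treated replicate 1, 2 or 4 (0.0568 to 0.127). Hoxc8, at 23.2, 15.8, 18.5 and 25.3 CPM untreated and 22.3, 19.6, 19.8 and 19.5 CPM treated, had overlapping groups and a log2 fold change of -0.03 (SE 0.152, adjusted p 0.873).

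In cluster D, 3 of 4 tested genes were lower in treated mouse skin. Hoxd8 (chromosome 2, 74534959 to 74538277, plus strand) was 33.3, 24.7, 31.1 and 33.3 CPM untreated and 12.5, 16.3, 20.3 and 17.5 CPM treated (log2 -0.87, SE 0.161, adjusted p 0.00151). Hoxd9 was 13.5, 11, 14 and 12.6 CPM untreated and 4.73, 4.66, 4.95 and 6.57 CPM treated (log2 -1.29, SE 0.157, adjusted p 0.000158). The 3′ gene Hoxd4, more than 50% of whose exon length is shared with other genes, was 1.47, 5.13, 2.49 and 3.33 CPM untreated and 0.368, 0.791, 0.909 and 0.408 CPM treated, a log2 fold change of -2.30 (SE 0.451, adjusted p 0.00209). These 3 genes had no overlap between groups. Hoxd10, the most 5′ D gene detected, was 1.26, 0.658, 1.43 and 1.18 CPM untreated and 0.893, 0.703, 0.873 and 0.891 CPM treated and did not pass the test (adjusted p 0.224).

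**Figure D3:**
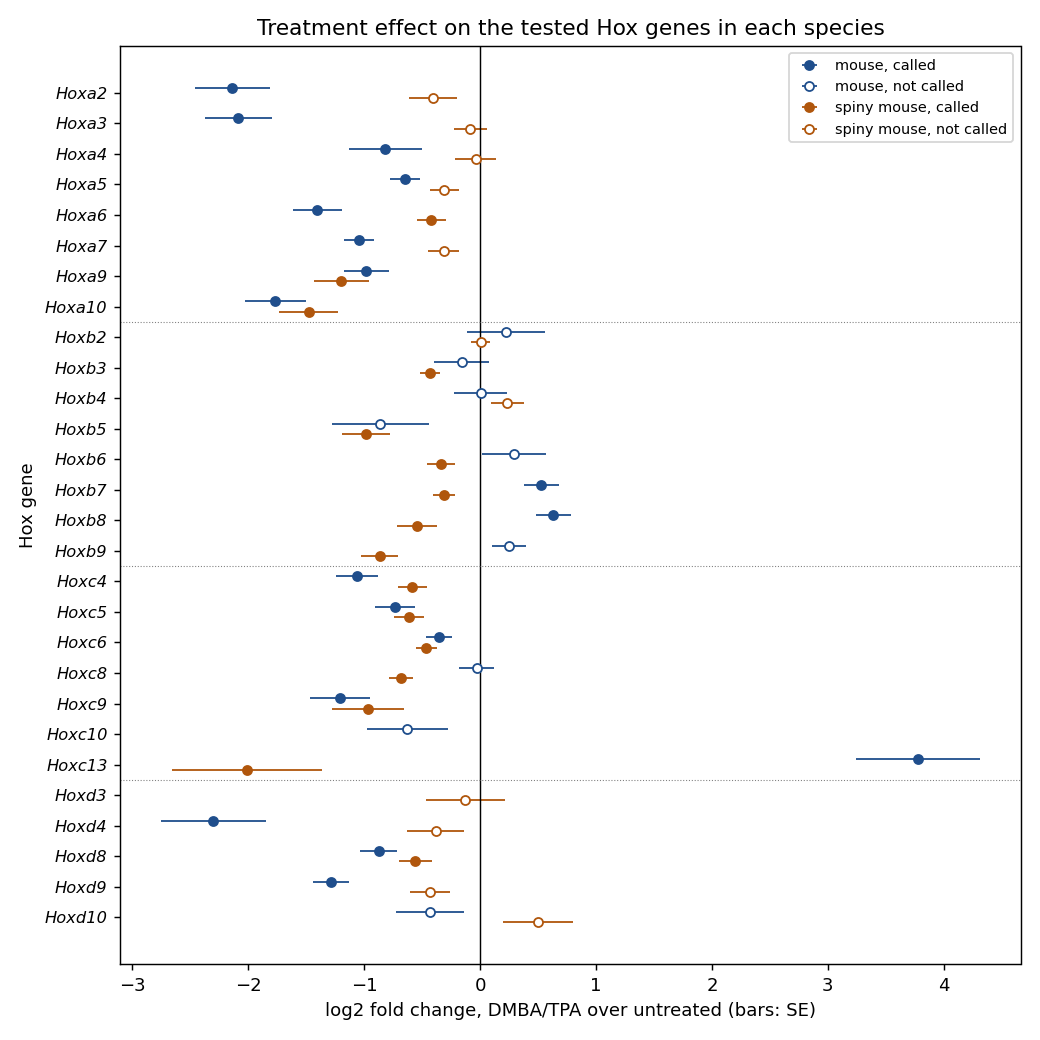
Log2 fold change (treated over untreated) with its standard error for Hox genes tested in mouse (blue) or spiny mouse (orange), with filled points for genes called at an adjusted p under 0.05. Cluster A genes lie to the left in mouse, and Hoxb7, Hoxb8 and Hoxc13 have filled points on opposite sides of 0 in the 2 species.

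Most tested Hox genes of spiny mouse were called lower after treatment too, with the calls chiefly in clusters B and C. Of 28 members tested 17 were called, 1 higher and 16 lower, against 55.1% of all 14833 genes tested, 28.2% higher and 26.9% lower. The median log2 fold change was -0.43 over the members and -0.01 over all genes. Groups did not overlap for 13 of the 28 members and for 50.9% of all genes. All 6 tested genes of cluster C and 6 of 8 of cluster B were called lower, against 3 of 9 in cluster A and 1 of 5 in cluster D. The median log2 fold changes set only cluster C apart, at -0.65, with -0.31 in A, -0.39 in B and -0.38 in D.

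The A genes called lower in spiny mouse were Hoxa9 and Hoxa10, the most 5′ detected of the cluster, and Hoxa6 of the middle. Hoxa10 was 5.58, 7.38, 4.42 and 5.9 CPM in untreated samples and 1.32, 2.89, 2.27 and 1.78 CPM in treated replicates 1 to 4, a log2 fold change of -1.48 (SE 0.251, adjusted p 0.00103). Hoxa9 was 3.1, 4.4, 3.34 and 4.62 CPM untreated and 1.36, 2.04, 2.12 and 1.14 CPM treated (log2 -1.20, SE 0.239, adjusted p 0.00253). Neither gene had overlapping groups. Hoxa6 changed by -0.42 (adjusted p 0.0162, and 0.0515 without untreated replicate 4).

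Hoxa5 and Hoxa7, the leading A genes per length, did not pass the test in spiny mouse. Hoxa5 was 12.2, 13.2, 11.7 and 14.4 CPM untreated and 10.5, 9.75, 8.71 and 12.6 CPM treated (adjusted p 0.0603). Hoxa7 was 6.46, 6.27, 6.13 and 6.03 CPM untreated and 5.5, 5.54, 3.92 and 5.07 CPM treated (adjusted p 0.0688). The values of Hoxa5 overlapped between groups and those of Hoxa7 did not. Hoxa3 was 7.96, 6.94, 6.16 and 8.09 CPM untreated and 7.46, 6.4, 5.64 and 8.04 CPM treated, with a log2 fold change of -0.08 (SE 0.145).

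In cluster B of spiny mouse, Hoxb5 had the largest change, -0.98 (SE 0.209, adjusted p 0.00343), from 4.59 ± 1.06 to 2.33 ± 0.408 CPM. Hoxb9 was 11.2, 7.65, 9.67 and 11.2 CPM untreated and 6.23, 5.0, 4.54 and 6.03 CPM treated, without overlap (log2 -0.87, SE 0.158, adjusted p 0.00154). The trunk genes Hoxb6, Hoxb7 and Hoxb8 were called with changes of -0.34, -0.31 and -0.54. Hoxb6, with Hoxb2 the most abundant B gene per length, was 24.7, 23.4, 20.2 and 25.6 CPM untreated and 19.4, 17.8, 15.2 and 21.8 CPM treated, with overlap, and Hoxb8 was 16.8, 16.1, 10.9 and 19.7 CPM untreated and 12.1, 11.7, 9.81 and 10.1 CPM treated, where untreated replicate 3 lay within the treated range. The call of Hoxb6 was lost without untreated replicate 1, 2 or 4 or treated replicate 1, 2 or 3 (adjusted p 0.0576 to 0.0986). That of Hoxb7 was lost without untreated replicate 4 or treated replicate 2 or 3 (0.0530 to 0.0631), and that of Hoxb8 without untreated replicate 1 or 4 or treated replicate 3 or 4 (0.0519 to 0.0631).

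Cluster C had Hoxc8 as its most abundant trunk gene in spiny mouse, at 30.5, 30.8, 22.5 and 27.2 CPM untreated and 17.4, 17.2, 17.7 and 16.8 CPM treated. Every treated sample lay below every untreated one, with a log2 fold change of -0.68 (SE 0.103, adjusted p 0.000537). Hoxc4, Hoxc5 and Hoxc6 changed by -0.59, -0.61 and -0.46, also without overlap. Hoxc9 was 2.38, 3.21, 1.46 and 2.61 CPM untreated and 0.91, 1.89, 1.02 and 1.05 CPM treated (log2 -0.97, adjusted p 0.0241), with overlap, and the call was lost without untreated replicate 2 or 4 or treated replicate 1, 3 or 4 (0.0553 to 0.0654). Hoxc10, detected in mouse only, was 0.646, 0.436, 0.136 and 0.32 CPM untreated and 0.136, 0.179, 0.0732 and 0.0457 CPM treated in spiny mouse and was not tested there. In mouse it was 1.83, 0.921, 2.71 and 1.82 CPM untreated and 0.84, 1.36, 1.02 and 1.49 CPM treated, and it did not pass the test (adjusted p 0.145).

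In cluster D of spiny mouse only Hoxd8 was called lower, at 16.3, 23.3, 18.6 and 19.7 CPM untreated and 11.5, 16.5, 12.6 and 12.3 CPM treated. The groups overlapped by 1 treated sample, replicate 2, and the log2 fold change was -0.56 (SE 0.142, adjusted p 0.00866). Hoxd9 was 7.55, 11.5, 8.07 and 11.7 CPM untreated and 6.37, 6.68, 7.14 and 8.59 CPM treated (adjusted p 0.0606). Hoxd10 was 1.6, 1.51, 1.23 and 2.74 CPM untreated and 1.64, 2.18, 2.6 and 3.52 CPM treated (adjusted p 0.191), and Hoxd4 was 2.14, 1.82, 2.04 and 2.79 CPM untreated and 1.05, 2.25, 1.57 and 1.83 CPM treated (adjusted p 0.214). For these 3 genes the groups overlapped and the test was not passed.

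The species were then compared in 1 model, as the species by treatment interaction. Of 27 members tested, 12 were called, near the 46.1% of all 13656 shared genes, split into 21.4% above and 24.7% below the mouse effect. Among the called members the direction followed the cluster, with exceptions in 4 settings. There Hoxc4 (upper-quartile factors, unscaled library sizes or without treated mouse replicate 3) or Hoxb4, Hoxb5 and Hoxc4 (hair covariate) were also called above. All 7 called members whose spiny mouse effect lay above that of mouse were in clusters A and D (among them Hoxa2, Hoxa3, Hoxa6, Hoxa7, Hoxd4 and Hoxd9). All 5 called members where it lay below were in clusters B and C (Hoxb7, Hoxb8, Hoxb9, Hoxc8 and Hoxc13). Members not called did not all keep to this. In cluster C, with a median difference of 0.004, Hoxc4 (0.47), Hoxc9 (0.24) and Hoxc5 (0.12) lay above and Hoxc6 (-0.11) below. Hoxb4 (0.23) lay above and Hoxa9 (-0.21) below. Without untreated mouse replicate 2, 16 were called, 8 above and 8 below, with Hoxd10 added above and Hoxb3, Hoxb5 and Hoxb6 below. Of all 13701 genes tested in that fit, 7711 were called, 39.9% of them above. With upper-quartile factors or unscaled library sizes 16 were called too, 11 of them above. Of all genes, 6346 and 6506 were called with these, 61.2% and 66.2% of them above. Differences of at least 1 on the log2 scale were called for 6 members, 3 in each direction, and for 21.4% of all shared genes (11.5% above, 9.94% below). The largest among A and D genes were those of Hoxa3 (2.0, SE 0.327, adjusted p 0.000172), Hoxd4 (1.91, SE 0.52, adjusted p 0.00727) and Hoxa2 (1.74, SE 0.369, adjusted p 0.00131). Hoxb8 and Hoxb9 differed by -1.18 and -1.12 (SE 0.236 and 0.213, adjusted p 0.000872 and 0.000574). Hoxa2, Hoxa3, Hoxa7 and Hoxd4 are among the mouse genes with over 10% exon overlap, and Hoxa6 and Hoxd9 are not. Among the 20 members tested with at most 10% overlap, 8 were called in the interaction, 3 above and 5 below, with a median difference of 0.18.

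Of the members, 11 were called in both species, and 8 of these were lower in both, Hoxa6, Hoxa9, Hoxa10, Hoxc4, Hoxc5, Hoxc6, Hoxc9 and Hoxd8. The other 3, Hoxb7, Hoxb8 and Hoxc13, were higher in treated mouse and lower in treated spiny mouse, and each was called in the interaction. The 11 are part of 18 calls in mouse and of 17 in spiny mouse, among 27 members tested in both. Over all genes, 61.2% were called in mouse and 55.1% in spiny mouse. The share of all genes called in both was not counted, so the 11 cannot be set against a background. For the 8 genes lower in both, the interaction was called for Hoxa6 alone. Hoxa10 differed by 0.29 (SE 0.366) and Hoxa9 by -0.21 (SE 0.303), differences smaller than their standard errors.

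Hoxc13, which drives hair keratin genes in the forming hair shaft, had the largest change of all members in mouse (chromosome 15, 102829538 to 102837249, plus strand). It was 7.57, 25.8, 5.53 and 4.33 CPM in untreated mouse replicates 1 to 4 and 146, 144, 153 and 148 CPM in treated ones. The groups did not overlap, treated samples lay within 10 CPM of each other, and untreated replicate 2 was the highest untreated sample. The mean ratio was 13.7-fold on the fitted scale (log2 3.77, SE 0.535, adjusted p 0.00036), and the log2 fold change was 4.75 without untreated replicate 2.

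In spiny mouse Hoxc13 was 62.2, 74.3, 10.4 and 28 CPM untreated and 5.78, 4.32, 20.3 and 13 CPM treated. Untreated replicates 1 and 2 were high and treated replicates 1 and 2 low, and replicates 3 and 4 of both groups overlapped. The log2 fold change was -2.01 (SE 0.646, adjusted p 0.0251). That call was lost when untreated replicate 1 or 2 or treated replicate 1 or 2 was left out, with adjusted p between 0.0579 and 0.0707, and with a robust fit (0.0643). The species difference was -5.78 (SE 0.911, adjusted p 0.000126).

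Hoxc13 moved with markers of the growing hair follicle. The 12 markers, among them Foxn1, Msx2, Dlx3 and the inner root sheath keratins Krt25, Krt27, Krt28 and Krt71, summed to 39.7, 2776, 65.8 and 44.9 CPM in untreated mouse and to between 23381 and 25355 CPM in treated mouse. The 11 of them in the spiny mouse table summed to 12771, 13807, 1330 and 3965 CPM untreated and to 297, 241, 3687 and 1493 CPM treated. None of the markers was at 0 counts throughout a group. In mouse 10 of the 12 rose (median log2 4.50), and in spiny mouse 5 of 11 fell (median -2.39). With the mean log2 level of the hair markers as a covariate, the Hoxc13 change was 1.69 in mouse (adjusted p 0.00168), 0.000127 in spiny mouse (adjusted p 0.999) and -1.55 in the interaction (adjusted p 0.153). In mouse this score separated the groups without overlap (1.38 to 7.03 untreated, 9.78 to 9.83 treated). Within the mouse groups only untreated replicate 2 lay far from the others. The mouse fit can thus hardly tell the treatment from the score.

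**Figure D4:**
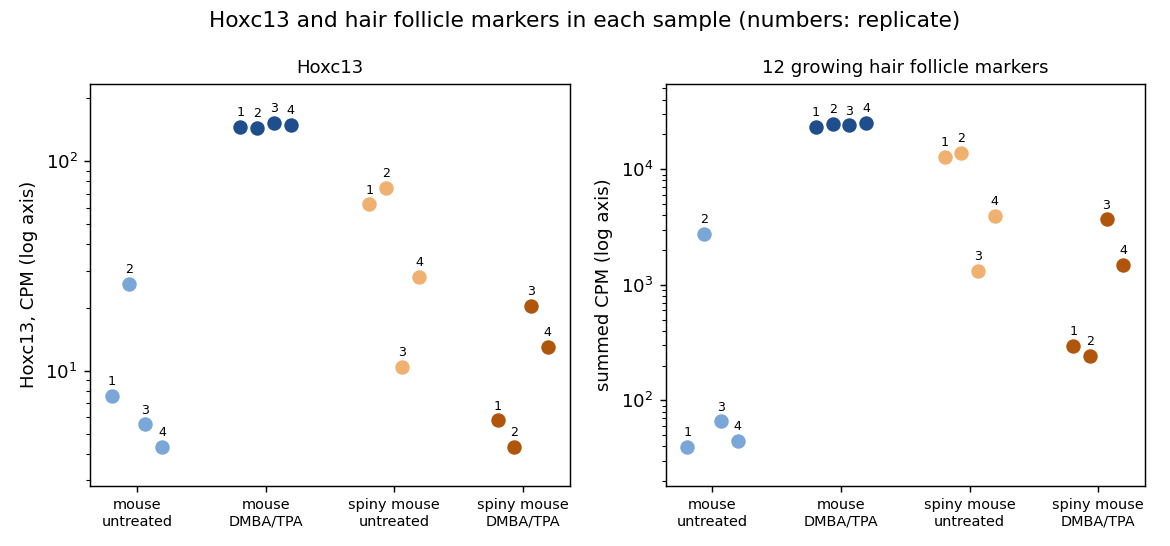
Hoxc13 (left) and the summed level of growing hair follicle markers (right) in each sample, in CPM on log axes, with the replicate number above each point. The 4 treated mouse samples are the highest in both panels, and spiny mouse replicates 1 and 2 are high untreated and low treated in both.

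Markers of other cells moved with the treatment as well. All 12 skeletal muscle markers fell in mouse (median log2 -2.12) and all 11 tested fell in spiny mouse (-1.15). Their sum was between 27073 and 71918 CPM in untreated mouse (27073 to 30042 CPM without replicate 2) and between 4610 and 6169 CPM in treated mouse, and between 24299 and 31833 CPM in untreated and between 8640 and 17136 CPM in treated spiny mouse. Dermal fibroblast markers (Col1a1, Col1a2, Col3a1, Pdgfra, Dcn, Lum, Dpt, Twist2, Fbn1 and Mfap5) had a median log2 fold change of -0.50 in mouse, with 2 of 10 called, both lower, and -0.72 in spiny mouse, with 5 lower and 1 higher. Their sum overlapped between the mouse groups (10271 to 16666 CPM untreated, 7731 to 11447 CPM treated) and not between the spiny mouse groups (5060 to 8477 and 2877 to 4065 CPM). No marker of these lists was at 0 counts throughout a group.

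The summed level of basal keratinocyte markers was higher in treated skin without overlap in both species. It was between 6938 and 10038 CPM in untreated and between 14078 and 18834 CPM in treated mouse, and between 8295 and 10020 and between 16661 and 20884 CPM in spiny mouse. Single markers of that list moved both ways, with Krt14 and Krt5 higher and Krt15 lower in each species. In mouse all 5 melanocyte markers rose (median log2 3.0, sums of 11.6 to 105 CPM untreated and 224 to 358 CPM treated). In spiny mouse their sums were 5.62 to 37.1 CPM untreated and 8.49 to 12.8 CPM treated. Of leukocyte markers, 4 of 5 tested fell in mouse (median -0.74), while in spiny mouse 2 of 6 rose (median 0.37). Of adipocyte markers, 3 of 6 fell in mouse and 4 of 6 in spiny mouse, and of endothelial markers 3 of 5 and 2 of 5 fell. Of dermal papilla markers, 4 of 8 rose and 1 fell in mouse, and 1 rose and 3 fell in spiny mouse. The part of these cells in the Hox values was not tested.

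The fibroblast, muscle and hair scores were also used as covariates for the counts above. With the fibroblast score, 18 mouse members were called. These were 17 of the 18 called without it, and Hoxb5 (log2 -1.31, adjusted p 0.000563) in place of Hoxa4 (adjusted p 0.0707). In spiny mouse 3 members were called with the fibroblast score, against 17. That score separated the spiny mouse groups without overlap, and not those of mouse. The spiny mouse fit can thus hardly tell the treatment from the fibroblast score. With the muscle score, which separated treated from untreated samples without overlap in both species, edgeR called 0 members in each, and 6 in mouse and 3 in spiny mouse had an unadjusted p under 0.05. With the hair score 14 members were called in mouse and 9 in spiny mouse, and 11752 of 19740 and 6219 of 14833 among all genes. The hair score separated the mouse groups without overlap and not those of spiny mouse. The part of the cell makeup was not tested beyond these covariates.

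The order of Hox levels was compared across groups as a description of positional pattern. Over all 39 members Spearman's rho of the mean level per length was 0.924 between untreated and treated mouse, 0.967 between untreated and treated spiny mouse, and 0.885 between untreated mouse and untreated spiny mouse. Over the 25 members detected in every group these were 0.81, 0.922 and 0.647. Among the 20 of those with at most 10% exon overlap in mouse, untreated mouse and untreated spiny mouse had a rho of 0.836, treated mouse and treated spiny mouse 0.881, and untreated and treated mouse 0.747. Whether the order was closer within mouse or between species thus depended on which genes were compared. These are descriptions across genes, which share libraries within a group and are not replicates. The detected set and this order gave no group that lacked the trunk genes or carried the distal limb and genital genes, and the files hold no sample of known site to set them against.

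Among transcription factors that mark trunk dermis, most called genes were lower after treatment. Tbx15, which patterns dorsal trunk dermis and coat pigment, was 104, 105, 86.1 and 76.8 CPM in untreated mouse and 28.6, 30.7, 34.6 and 40.1 CPM in treated mouse, a fall of log2 -1.47 (adjusted p 5.21e-05). In spiny mouse it was 66.6, 59.2, 66.6 and 74.6 CPM untreated and 31.8, 50.9, 39.4 and 42.3 CPM treated (log2 -0.70, adjusted p 0.0021). Tbx15 was thus present in every sample and lower in all treated ones. Zic1, a gene of dorsal midline mesoderm and neural tissue, fell in both species, from 20.3 ± 6.26 to 9.79 ± 2.39 CPM in mouse and from 14.3 ± 1.54 to 7.3 ± 1.57 CPM in spiny mouse. Emx2, expressed in trunk and limb girdle mesenchyme, fell in mouse from 4.39 ± 0.385 to 1.81 ± 0.378 CPM (log2 -1.28) and was 5.17 ± 0.377 and 4.58 ± 0.905 CPM in spiny mouse, where it did not pass the test. Msx1, which is also a gene of the hair follicle, rose in mouse (log2 2.08) and fell in spiny mouse (-1.78), with a species difference of -3.86. In all, 6 of 7 tested trunk dermis genes were called in mouse, 1 higher and 5 lower, and 3 of 7 in spiny mouse, all lower.

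Limb genes were mixed, and Tbx5 and Hand2 were near 0. Tbx5, which marks the forelimb, had at most 0.611 CPM and 15 counts in any sample. Tbx4, of the hindlimb, was 1.75 ± 1.2 CPM in untreated samples and 1.39 ± 0.158 CPM in treated mouse, and 0.47 ± 0.107 and 0.229 ± 0.113 CPM in spiny mouse. Hand2, of the posterior limb bud, had at most 3 counts in any sample. Pitx1, which sets hindlimb identity and is also found in epithelia, was 0.692, 0.307, 0.879 and 1.87 CPM in untreated samples and 12.3, 8.09, 11.1 and 9.21 CPM in treated mouse (log2 3.44, adjusted p 0.00017). In spiny mouse it went the other way, from 5.82, 7.93, 6.74 and 8.46 to 3.5, 4.93, 4.76 and 3.66 CPM (log2 -0.77, adjusted p 0.00396), a species difference of -4.22. Isl1 fell in both species (log2 -2.41 and -1.44), and Lmx1b, of the dorsal limb and nail, rose in mouse from 1.36 ± 0.864 to 3.88 ± 0.652 CPM. Of the list, 3 of 6 tested genes were called in mouse (2 higher) and 2 of 4 in spiny mouse (both lower).

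**Figure D5:**
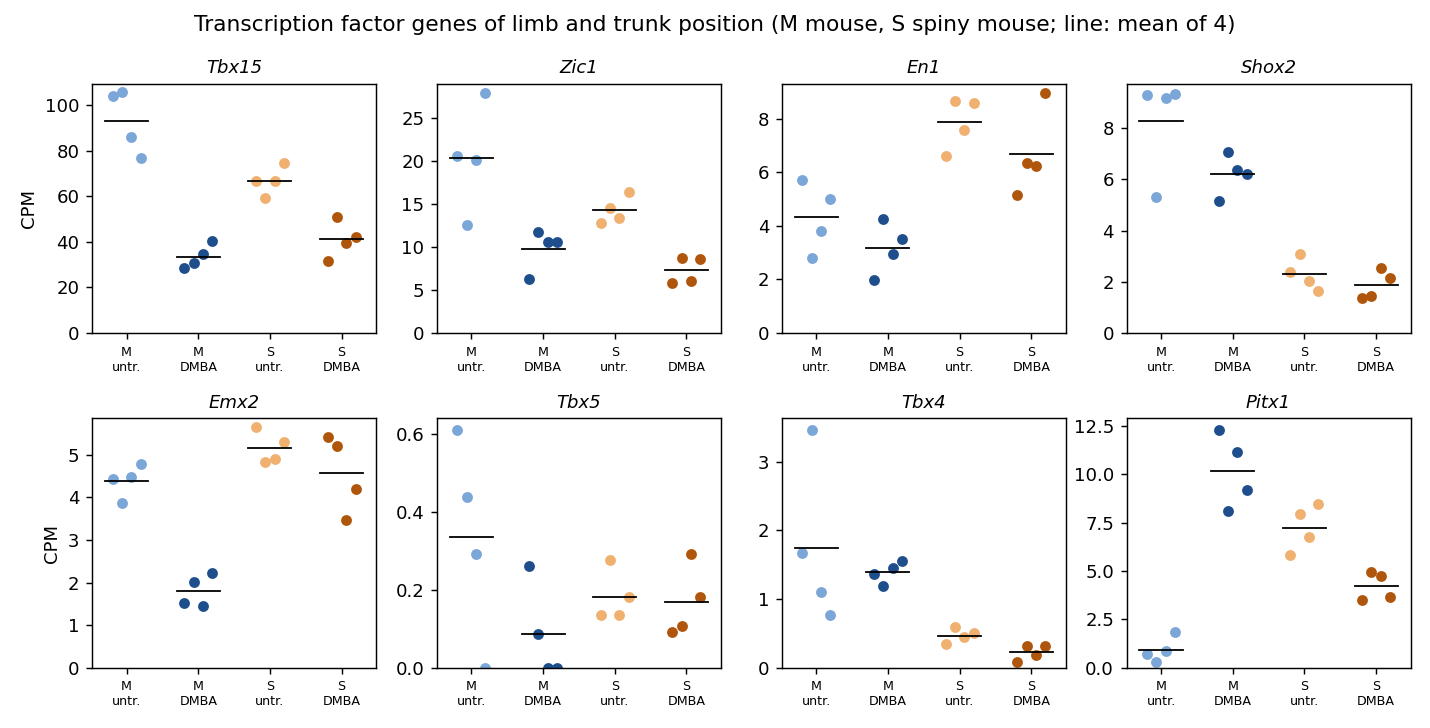
CPM of 8 transcription factor genes of trunk and limb position in each of the 16 samples, with a line at each group mean and axes that start at 0. Tbx15 and Zic1 are present in every group and lower after treatment, and Pitx1 is higher in treated than in untreated mouse and lower in treated than in untreated spiny mouse.

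Head and face genes were mostly at the floor. Barx1, of the jaw, had 0 counts in all 16 samples, and Otx2, of the forebrain, had at most 1 count in a sample. Of 12 listed genes 4 passed the filter in each species. Alx4, also expressed in the dermal papilla, was 3.23 ± 2.94 and 7.21 ± 1.17 CPM in mouse, where it did not pass the test (adjusted p 0.061), and fell in spiny mouse (log2 -1.44). Dlx5 rose in mouse (log2 0.48, adjusted p 0.0481). The ParaHox genes, which are homologs of Hox genes used in gut and brain, were at or near 0 counts. Cdx2, Cdx4, Pdx1, Gsx1 and Gsx2 had 0 counts in all samples, and Cdx1 had 0 counts in untreated mouse and group means of 0.114 ± 0.0315, 0.21 ± 0.131 and 0.0594 ± 0.0722 CPM elsewhere.

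Cofactors of Hox proteins changed in part. TALE homeodomain proteins (Meis, Pbx and Pknox) bind DNA with Hox proteins and sharpen their choice of site. All 9 passed the filter in both species. In mouse 2 rose and 5 fell (median log2 -0.57), and in spiny mouse 4 rose and 4 fell (median 0.01). Meis2 was 13.4, 15.9, 10.3 and 13.6 CPM in untreated samples and 7.46, 6.68, 4.84 and 5.98 CPM in treated mouse, and 13.1, 11.8, 14.6 and 16.2 and 20.3, 21.9, 17.7 and 20.5 CPM in spiny mouse, so that it fell in mouse (log2 -1.09, adjusted p 0.000868) and rose in spiny mouse (0.53, adjusted p 0.00335). Its species difference was 1.63. Pknox2 fell in both species (log2 -1.94 and -1.0), as did Meis3 (-0.72 and -0.78) and Pbx4 (-1.29 and -1.23).

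Chromatin regulators of the clusters gave no common direction. Polycomb proteins keep Hox genes silent outside their domains and Trithorax proteins keep them active. Of 20 such genes tested in each species, 7 rose and 5 fell in mouse (median log2 0.02) and 5 rose and 5 fell in spiny mouse (-0.04). Cbx7, a Polycomb reader protein, fell from 55.6 ± 5.4 to 13.8 ± 1.73 CPM in mouse (log2 -2.01, adjusted p 6.18e-06) and from 25 ± 3.52 to 10.3 ± 1.63 CPM in spiny mouse (-1.27, adjusted p 0.000108). Its relative Cbx8 rose in mouse (log2 0.86), where Men1, a partner of the activating Kmt2a complex, rose as well (1.01), and both differed between species (-0.93 and -1.04). In spiny mouse Ezh1 fell (log2 -0.68). Ezh2, the enzyme that writes the Polycomb mark, was 32 ± 3.42 and 33.1 ± 3.04 CPM in mouse and 24.3 ± 4.8 and 25.8 ± 1.89 CPM in spiny mouse and did not pass the test in either.

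Retinoic acid, made from vitamin A, switches on 3′ Hox genes in embryos. Of the listed genes of this pathway, 12 of 16 tested were called in mouse, 8 higher and 4 lower (median log2 0.26), and 13 of 15 in spiny mouse, 6 higher and 7 lower (0.17). Aldh1a3, which makes retinoic acid in keratinocytes, rose from 17.7 ± 4.6 to 172 ± 35.3 CPM in mouse and from 54.7 ± 18.5 to 294 ± 131 CPM in spiny mouse (log2 3.29 and 2.43). Stra6, the retinol uptake receptor, was 13.4, 28.2, 8.83 and 8.29 CPM untreated and 86.3, 78.4, 73.5 and 78.9 CPM treated in mouse and 37.7, 37.8, 4.22 and 14.8 CPM untreated and 0.91, 1.5, 7.72 and 5.67 CPM treated in spiny mouse, and its species difference was -5.01. In mouse the treated samples had both the highest Stra6 levels and the highest hair marker sums, though not in the same order. In spiny mouse both were highest in untreated replicates 1 and 2. The part of hair follicles in Stra6 was not tested. Rxrg fell in mouse (log2 -2.43) by more than in spiny mouse (difference 1.92), and Crabp2 had a smaller change in spiny mouse (difference -1.84).

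The noncoding genes of the clusters could be followed in mouse alone. Of 10 in the table, 6 were tested and 4 fell, with none rising (median log2 -1.64). These were Hoxd3os1 (log2 -1.69) and, named after their values were seen, Hotairm1 (-1.58), Hoxaas2 (-3.47) and Hoxaas3 (-2.27), which lie in clusters D and A, beside or over the Hox genes that fell. Fragments from shared exons were not counted and strand was not used, so antisense and Hox transcripts cannot be told apart there. Hottip, at the 5′ end of cluster A, had 0 counts in all mouse samples, and Hotair, between Hoxc11 and Hoxc12, had 0 counts in untreated mouse and 0.0464 ± 0.0928 CPM in treated mouse.

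Genes that flank the clusters moved in both directions. Of 8 tested in mouse, 4 rose and 3 fell (median log2 0.09), and of 8 in spiny mouse 3 rose and 2 fell (0.16). Mtx2, next to cluster D, rose in both species (log2 0.51 and 0.59) while Hoxd8 fell. Lnpk, on the other side of cluster D, fell in mouse (-0.69) and was 33.6 ± 3.89 and 33.7 ± 1.9 CPM in spiny mouse. Skap2, next to the 3′ end of cluster A, fell in mouse (-0.47) and rose in spiny mouse (0.31), a species difference of 0.78. Near cluster C, Smug1 rose in mouse (0.61) and Calcoco1 differed between species (-1.02). Evx2, the homeobox gene at the 5′ end of cluster D, had 0 counts in all 16 samples, and Evx1 had 0 counts in both untreated groups.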

How the data were processed

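Poly(A) RNA of 16 skin samples was extracted with a PureLink kit and made into stranded libraries, per the labels. The authors trimmed reads with Trim Galore and aligned them with HISAT2, per the submitters' processing notes. The deposited values are raw counts per gene from featureCounts 2.0.3, per the file headers, for read pairs with both ends mapped. No strand option was set, and fragments that overlap more than 1 gene or map to more than 1 place were not counted. Mouse counts use GRCm39 with Ensembl 108 and spiny mouse counts use AcoCah2, per the file headers. Gene names were found for 56236 of 56980 mouse gene IDs, and 744 had none. Columns of untreated samples were matched through the species letter and replicate number in their names, and the code AC in their names is not explained in the sources used here.

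Total counts were 19608787 to 30561256 per sample. The 24 pairs of replicates of 1 group differed by more than sampling noise (chi-square 11.35 to 165.8 per degree of freedom). Each species was fitted on its own, treated against untreated, with edgeR 4.0.16 (R 4.3.3): filterByExpr, TMM factors, the quasi-likelihood F test and Benjamini-Hochberg adjustment over all genes tested, with calls at an adjusted p under 0.05. The species by treatment interaction was fitted over 13656 symbols shared by both tables, and a positive value means that the effect in spiny mouse lay above that in mouse. Standard errors are the log2 fold change over the square root of F. Levels between species were not tested. The steps were tested on simulated data, where 80% of 100 genes changed by 2 on the log2 scale were recovered in mouse, 96% in spiny mouse and 92% in the interaction, and 37%, 79% and 58% of those changed by 1.

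Values of some genes that enter the counts are not reported here. All 39 members and all gene lists were chosen with earlier results of these data known. Values per sample are printed for, in each species, the 2 members of highest level per length and the most 5′ detected member of each cluster, and for members called with a log2 fold change or species difference of at least 1, along with a few neighbours. For each further list, the rule was up to 3 called genes per comparison of largest change and average log2 CPM 1 or more, plus genes at 0 counts throughout a group. Other genes named from those lists, such as Zic1 in mouse, Ezh2, Tbx4, Tbx5 and Hand2, were chosen after their values were seen. Promoter windows come from RefSeq and were placed on GRCm39 by exact match. Alternatives were DESeq2 1.42.0 as a test and for size factors, upper-quartile factors, library size alone, TMM on totals over all genes, no filter, a robust fit, a replicate block, marker scores as covariates, other detection limits and leaving out each sample. Python 3.11.15 with pandas 2.3.3, scipy 1.17.1 and matplotlib 3.10.9 was used for summaries and figures.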

Additional observations from a re-analysis of the deposited data

Results flagged for a closer look

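In 9 of 112 tests of 4 replicates each, 1 replicate lay so far from the other 3 that the gap to its nearest neighbour exceeded Dixon's limit. Chance gives about 1 in 20 such tests. In untreated mouse skin these were replicate 2 for Hoxb4 (12.8 CPM), Hoxb5 (9.25 CPM) and Hoxc13 (25.8 CPM), and replicate 3 for Hoxa9 (10.3 CPM), all above the rest. In treated mouse skin they were Hoxc8 in replicate 1 (22.3 CPM) and Hoxd9 in replicate 4 (6.57 CPM), both above, and Hoxd10 in replicate 2 (0.703 CPM), below. In spiny mouse they were Hoxd3 in untreated replicate 4 (1.19 CPM) and Hoxc9 in treated replicate 2 (1.89 CPM), both above. Untreated mouse replicate 2 thus stood apart for 3 members, and the same sample had the highest hair marker sum of its group, 2776 CPM against 39.7 to 65.8 CPM.

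The effect of treatment differed between species for 12 members in the edgeR interaction test. The signed log2 fold change in spiny mouse lay above that in mouse for, among others, Hoxa3 (difference 2.0), Hoxd4 (1.91), Hoxa2 (1.74), Hoxa6 (0.99), Hoxd9 (0.85) and Hoxa7 (0.73). For these the mouse log2 fold change was negative and that in spiny mouse nearer to 0. The spiny mouse value lay below that of mouse for Hoxc13 (-5.78), Hoxb8 (-1.18), Hoxb9 (-1.12), Hoxb7 (-0.84) and Hoxc8 (-0.65).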

How the results depend on the processing

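Of the called members, 14 of 18 in mouse, 11 of 17 in spiny mouse and 11 of 12 in the interaction passed the threshold with the same direction in every setting other than the marker covariates. Leaving out 1 sample gave 16 to 20 called members in mouse, 13 to 18 in spiny mouse and 11 to 16 in the interaction. Called among all genes were then 11062 to 13944, 7258 to 8132 and 5746 to 7711. With the muscle score as a covariate edgeR called 0 members in mouse (6 at an unadjusted p under 0.05, and 0 of all genes). It called 0 in spiny mouse (3 at an unadjusted p under 0.05, and 411 of all genes) and 6 in the interaction (3017 of all genes). Log2 fold changes that changed sign there were those of Hoxa3 (2.06), Hoxc4 (0.66), Hoxc5 (1.68), Hoxc6 (0.41) and Hoxd4 (1.34) in mouse and of Hoxc9 (0.084) in spiny mouse. With the fibroblast score 3 spiny mouse members (and 3850 of all genes) were called and Hoxc13 was at 0.20. The fibroblast score separated the spiny mouse groups without overlap, so that fit can hardly tell the treatment from it. With the hair score 9 (and 6219 of all genes) were called, Hoxc13 was at 0.0001273 and the interaction of Hoxa7 at -0.024. The cause was not tested. The replicate numbers did not pair the samples (mean correlation of deviations 0.00943 in mouse and -0.355 in spiny mouse). A replicate block gave 16, 18 and 13 called members in mouse, spiny mouse and the interaction, with 16 of 18, 16 of 17 and 12 of 12 calls shared with the fit without it, and the calls lost were Hoxa4 (adjusted p 0.0648) and Hoxc6 (0.063) in mouse and Hoxc13 (0.131) in spiny mouse. Without division by length, the mean shares of paralog groups 1 to 4 in untreated mouse, treated mouse, untreated spiny mouse and treated spiny mouse were 15.36%, 7.606%, 26.73% and 33.63%, and those of groups 5 to 8 were 64.24%, 39.59%, 49.13% and 51.7%. Over members with at most 10% exon overlap, groups 1 to 4 held 8.29%, 4.457%, 5.388% and 8.015% in the same order, groups 5 to 8 held 39.94% in treated mouse, 65.11% in untreated and 72.96% in treated spiny mouse, and groups 9 to 13 held 23.21% in untreated mouse, 55.6% in treated mouse and 19.02% in treated spiny mouse. Without Hoxc13, a setting chosen after seeing the data, groups 1 to 4 held 11.98% in treated mouse and 28.6% in treated spiny mouse, groups 5 to 8 held 75.08% in treated mouse, 64.41% in untreated and 61.59% in treated spiny mouse, and groups 9 to 13 held 15.96%, 12.94%, 12.36% and 9.815% in the 4 groups. Of all genes called in the interaction, 46.4% had a log2 fold change in spiny mouse above that in mouse with TMM scaling, 61.2% with upper-quartile factors and 36.9% with DESeq2 size factors. Depth limits the 11 undetected members, since 3 counts are 0.102 to 0.158 CPM. In mouse, uncounted fragments of shared exons also limit Hoxd3 (62.8% of its exon length), Hoxa11 (35.0%) and Hoxd11 (10.8%).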
